A study of Mus musculus with 12 samples.

Results

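The mRNAs of 10 selenoproteins were followed from total RNA (input) to heavily loaded polysomes in fat stromal cells of obese mice. The genes were taken from a list of names and not by a threshold on measured values, and were Gpx1, Gpx3, Gpx4, Selenop, Selenow, Selenof, Selenok, Selenos, Selenot and Txnrd1, out of 35523 genes counted and 24 mouse selenoprotein genes listed. That list was chosen with earlier results of these data known. All 10 passed the filter on low counts in every comparison. The cells were the stromal vascular fraction (SVF) of epididymal fat of 12-week-old male Lepob/Lepob (ob/ob) mice, which lack leptin, so every group shared that genotype. Both arms received IBMX, dexamethasone and insulin for 2 days and insulin for 2 more, with 1 µM of the PPARγ agonist rosiglitazone (Rosi) in one arm and the vehicle DMSO (Veh) in the other. At day 4 the cells were given fresh medium, then 100 µg/mL cycloheximide, and polysome fractions from a sucrose gradient were pooled from about 3 ribosomes per mRNA upwards. Each arm gave an input group and a polysome group, and each of these 4 groups had 3 deposited libraries that the labels call biological replicates. Input Veh replicates 2 and 3 were identical and counted once, so that n = 2 there and n = 3 elsewhere.

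Selenoproteins carry selenocysteine, which is encoded by UGA, a codon that elsewhere ends translation. A hairpin in the 3′ UTR, the SECIS element, is bound by SECISBP2, and the elongation factor EEFSEC brings the selenocysteine tRNA to the ribosome at the UGA. Most members are oxidoreductases with the selenocysteine in the active site. A UGA lying well before the last exon junction can also expose a transcript to nonsense-mediated decay, and the mRNAs of Gpx1 and Selenow are known for this when selenium is scarce. Fat tissue expresses many selenoproteins, among them the glutathione peroxidases, which guard against peroxides, and selenoprotein P, which carries selenium between tissues.

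The selenocysteine codons are shown here because they are what the members share, and because their place in the reading frame differs strongly between members. Each line runs 5′ to 3′ in the sense strand of the main transcript of GENCODE M21 (GRCm38), with the selenocysteine TGA in capitals and 12 bases on either side.
Gpx1: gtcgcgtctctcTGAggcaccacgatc
Gpx3: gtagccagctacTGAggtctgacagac
Gpx4: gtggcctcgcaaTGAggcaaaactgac
Selenop: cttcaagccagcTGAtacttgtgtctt
Selenow: tattgtggagctTGAggctataagccc
Selenot: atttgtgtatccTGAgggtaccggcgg
Selenof: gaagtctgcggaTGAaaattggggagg
Selenok: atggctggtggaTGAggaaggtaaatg
Selenos: tcatctggcggcTGAaactaagactct
Txnrd1: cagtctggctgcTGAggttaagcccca
For Selenop the first of its 10 selenocysteine codons is shown. The TGA was early in the frame in Selenow (codon 13 of 88), Gpx1 (47 of 201), Selenot (49 of 195), Selenop (59 of 380), Gpx3 (73 of 226) and Gpx4 (73 of 197). It was at codon 93 of 162 in Selenof. It was followed by only 1 or 2 more coding codons in Selenok (92 of 94), Selenos (189 of 190) and Txnrd1 (498 of 499), whose ordinary stop codon taa is visible within the printed window. A cysteine codon stood 3 codons before the TGA in Selenow and Selenot, 2 before it in Selenof and 1 before it in Txnrd1, and these pairs form the redox motif of the 4 proteins. In 7 members the TGA lay more than 50 bases upstream of the last exon junction, and in Selenok, Selenos and Txnrd1 it did not.

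The libraries held between 17.4 and 24 M estimated reads. The first principal component (50.2% of the variance) parted polysome from input, and the second (12.5%) parted Rosi from Veh. On the first, polysome Veh replicate 1 and polysome Rosi replicate 3 stood apart from the others of their groups. Markers of progenitors and macrophages were present, with 7 of 8 progenitor genes (all but Dpp4) and 10 of 10 macrophage genes reaching a mean of at least 1 in counts scaled to library size (CPM). The macrophage genes summed to between 11951 and 21424 CPM over the libraries. Lymphocyte genes were almost absent (1 of 8 at that level, sums of 0.184 to 1.29 CPM), and endothelial genes summed to only 11.0 to 24.2 CPM. The 4 smooth muscle genes summed to between 7489 and 11568 CPM, and the progenitor genes to between 1457 and 2571 CPM, most of it from Col3a1. Gpx5, the epididymal glutathione peroxidase, had 0 reads in every library, as did Lcn5, Adam7 and Defb21, while Crisp1, another epididymal gene, stood between 72.2 and 256 CPM. In such bulk RNA, fewer cells of a type and less RNA per cell cannot be told apart.

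Ranked by TPM, a level scaled for library size and transcript length, the glutathione peroxidases led the input. In input Veh Gpx4 stood at 857 ± 98.1 TPM (SD, n = 2), Gpx1 at 796 ± 16.0 and Gpx3 at 652 ± 50.3. Selenof (609 ± 13.9 TPM) and Selenop (572 ± 48.0) followed, then Selenow (268 ± 12.9), Selenok (253 ± 15.8), Selenos (134 ± 14), Txnrd1 (126 ± 0.420) and Selenot (71.3 ± 2.57). The libraries of neighbours overlapped except between Gpx1 and Gpx3, Selenop and Selenow, Selenok and Selenos, and Txnrd1 and Selenot. In polysome Veh the order began with Selenop (1135 ± 92.1 TPM, n = 3) and Selenof (963 ± 125), ahead of Gpx1 (784 ± 109), Gpx4 (753 ± 135) and Gpx3 (634 ± 164). Each of these 5 overlapped its neighbour. Selenow, sixth in input, came last in polysome Veh at 121 ± 28.1 TPM and last in polysome Rosi at 92.2 ± 5.26 TPM, overlapping in both with Txnrd1 just above it (133 ± 26.6 and 113 ± 17.2), and Selenot was no longer last. The 10 mRNAs summed to 4339 ± 15 TPM in input Veh, 4474 ± 51.1 in input Rosi, 5332 ± 185 in polysome Veh and 5151 ± 297 in polysome Rosi.

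**Figure D1:**
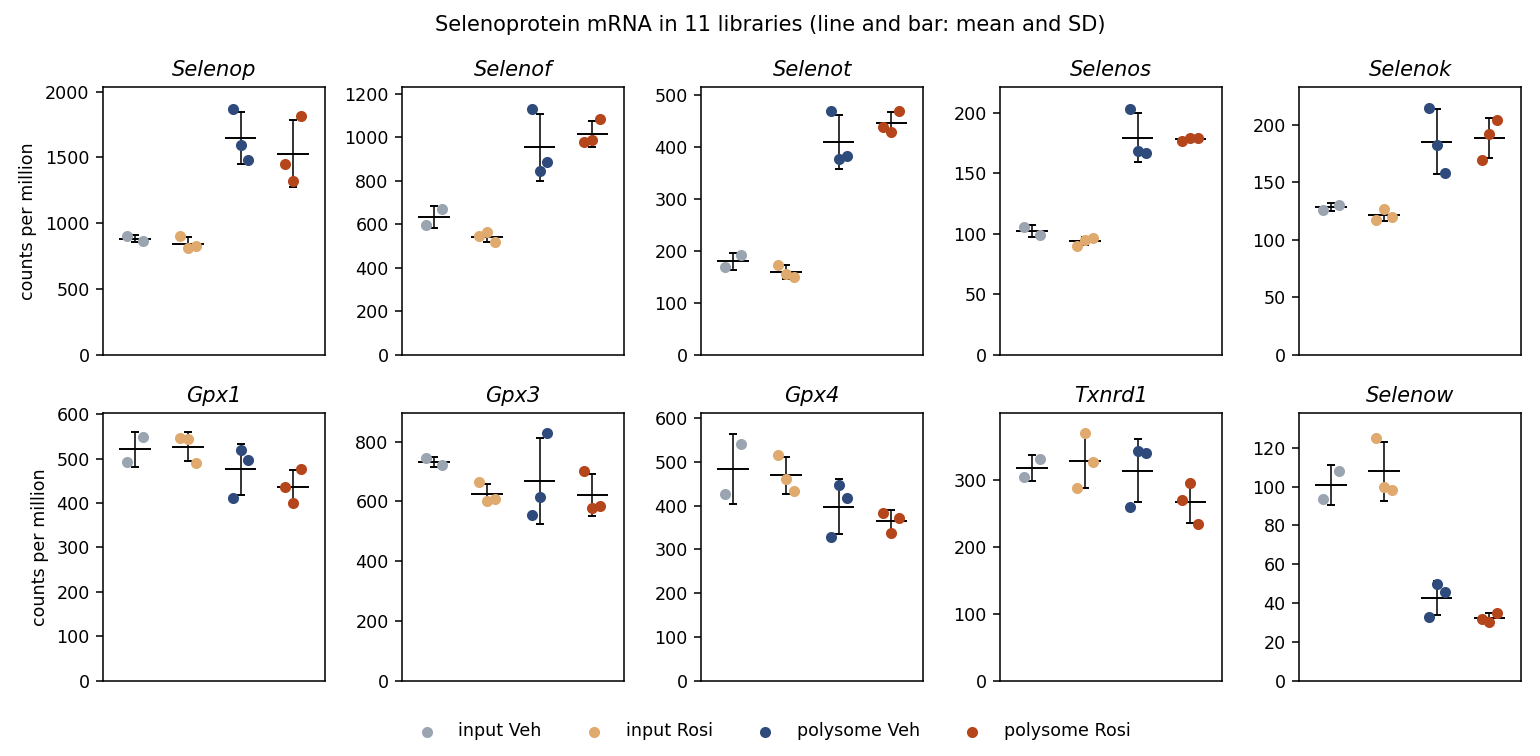
Level of each selenoprotein mRNA in CPM (vertical axis, from 0) in the 11 distinct libraries, by group, with each point a library and the line and bar the group mean and SD. Selenop, Selenof, Selenot, Selenos and Selenok were higher in every polysome library than in any input library, and Selenow was lower in every one.

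The first question was which of the 10 mRNAs were over- or underrepresented among heavily loaded polysomes, relative to all mRNAs of the same cells. Selenot, Selenos, Selenof and Selenok, whose products reside in the endoplasmic reticulum (ER), and Selenop, which is secreted, were higher in polysome than in input under both treatments, by 1.45- to 2.28-fold in Veh and by 1.55- to 2.80-fold in Rosi. Selenow, a small cytosolic protein, was 2.36-fold lower in Veh and 3.35-fold lower in Rosi. The glutathione peroxidases, the secreted Gpx3 among them, and Txnrd1 lay within 1.22-fold of input in Veh and did not pass there in the main fit. These groups were formed with the values known, and compartment was not tested.

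At an adjusted p under 0.05 (edgeR quasi-likelihood test, Benjamini-Hochberg over all genes), 5 of the 10 were higher and 1 lower in Veh, where 24.7% of all genes tested were higher and 24.6% lower. In Rosi 5 were higher and 3 lower, against 29.1% and 26% of all genes. With an absolute log2 fold change over 1 in addition, 2 of 10 were called in Veh, against 9.67% of all genes, and 2 of 10 in Rosi, against 11.3%, in both cases Selenot higher and Selenow lower. Of all genes, 2.99% were called higher and 6.68% lower in Veh, and 6.49% and 4.86% in Rosi. The libraries of polysome and input did not overlap for 6 members in Veh (64% of all genes) and 8 in Rosi (65.5%). In Veh the share of members that did not overlap was near that of all genes, the share that was higher lay above it and the share that was lower below it, with each member making up 10% of the list. By adjusted p, 7 of all 21 selenoproteins tested were higher and 5 lower in Veh, and 8 and 7 in Rosi. Their median log2 fold change was 0.14 in Veh and 0.15 in Rosi. The members' median log2 fold change was 0.26 in Veh and 0.31 in Rosi, against 0.02 and 0.00097 for all genes tested.

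**Figure D2:**
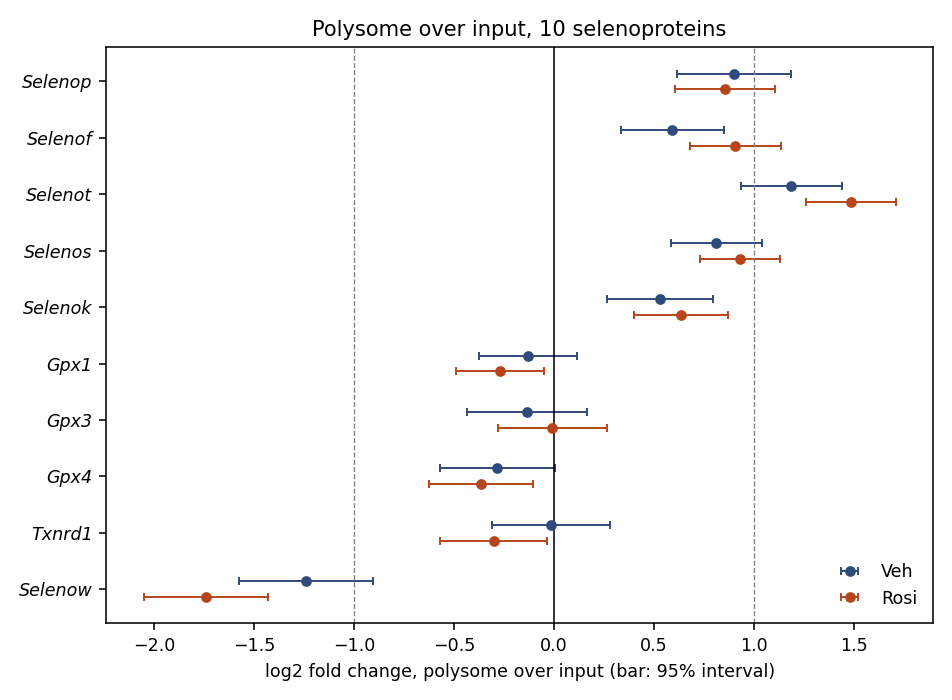
Log2 fold change of polysome over input (horizontal axis) for each of the 10 mRNAs in Veh and Rosi, with 95% intervals from the fit of 11 libraries and dashed lines at the fold limit of the calls. Selenot (1.19 and 1.49) and Selenow (−1.24 and −1.74) lie past the limits on opposite sides. The 4 members from Gpx1 to Txnrd1 lie between −0.37 and −0.0077, and the Rosi intervals of Gpx1, Gpx4 and Txnrd1 leave out 0.

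Selenot (ENSMUSG00000075700, selenocysteine codon at chr3:58585238-58585240, exon 2 of 6), a thioredoxin-fold oxidoreductase of the ER membrane, differed most among the members that were higher. It stood at 168 and 191 CPM in input Veh and at 469, 377 and 382 CPM in polysome Veh. With Rosi it stood at 174, 155 and 149 CPM in input and at 438, 429 and 470 CPM in polysome. Every polysome library thus lay far above every input library, with no overlap. The log2 fold change was 1.19 ± 0.12 in Veh (SE, edgeR adjusted p = 2.28e-06) and 1.49 ± 0.10 in Rosi (adjusted p = 2.55e-07). Of all genes tested, 98.3% lay below it in Veh and 98.9% in Rosi. Its main transcript has the longest 3′ UTR of the 10 members, 2468 bases.

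Selenop (chromosome 15, 3268547 to 3280508) encodes the secreted selenium carrier and is the only member with several selenocysteines, the last at codon 377. In input it stood at 902 and 862 CPM in Veh and at 898, 808 and 825 CPM in Rosi. In polysome it stood at 1864, 1595 and 1477 CPM in Veh and at 1448, 1323 and 1814 CPM in Rosi. The lowest polysome library was above the highest input library, although polysome libraries differed among themselves far more than input libraries, and the highest of each arm were the ones that stood apart on the first component. Selenot, Selenos, Selenof and Selenok were also highest in those libraries. Polysome over input was 0.90 ± 0.13 in Veh (log2, SE, edgeR adjusted p = 6.49e-05) and 0.86 ± 0.12 in Rosi (adjusted p = 2.12e-05). Both transcripts that held its reads, Selenop-203 (67.4 to 86.5% over the libraries) and Selenop-201 (13.4 to 32.5%), carry all 10 codons. Ccdc152, encoded on the opposite strand, shares 439 exonic bases with Selenop but had at most 301 reads in a library, against at least 14739 for Selenop.

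Selenos and Selenok are ER membrane proteins that work with the machinery of ER-associated degradation, and both carry their selenocysteine close to the end of the protein. Selenos (selenocysteine codon at chr7:66088844-66088846, exon 6 of 6) stood at 106 and 98.7 CPM in input Veh and at 203, 169 and 167 CPM in polysome Veh. With Rosi it stood at 90.0, 94.7 and 96.4 CPM in input and at 177, 179 and 180 CPM in polysome, the tightest of the polysome groups. Its log2 fold changes were 0.81 ± 0.11 (SE, edgeR adjusted p = 2.36e-05) and 0.93 ± 0.09 (adjusted p = 1.62e-06). Selenok (selenocysteine codon at chr14:29973440-29973442, exon 4 of 5) differed less. It stood at 126 and 131 CPM in input Veh and at 215, 183 and 158 CPM in polysome Veh, and at 117, 127 and 120 CPM in input Rosi and at 170, 192 and 204 CPM in polysome Rosi. Again no polysome library reached down to input. The log2 fold changes were 0.53 ± 0.12 (adjusted p = 0.00248) and 0.64 ± 0.11 (adjusted p = 0.000176). Between 24.4 and 28.0% of the reads of Selenok were assigned to Selenok-202, a transcript with no annotated coding frame, and 3.96 to 9.30% to Selenok-203, annotated as a target of nonsense-mediated decay.

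Selenof (selenocysteine codon at chr3:144590645-144590647, exon 3 of 5) is an ER protein bound to the glycoprotein folding sensor UGGT. It stood at 598 and 669 CPM in input Veh against 1130, 846 and 886 CPM in polysome Veh, and at 545, 562 and 517 CPM in input Rosi against 977, 985 and 1083 CPM in polysome Rosi. Polysome and input did not overlap in either arm. The log2 fold change was 0.59 ± 0.12 in Veh (SE, edgeR adjusted p = 0.00089) and 0.91 ± 0.11 in Rosi (adjusted p = 5.68e-06).

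Selenow (ENSMUSG00000041571, chromosome 7, 15917208 to 15922402, minus strand, selenocysteine codon in exon 2 of 6) encodes a small cytosolic thioredoxin-fold protein with the same spacing of cysteine and selenocysteine as Selenot. Its mRNA went the other way. It stood at 93.5 and 108 CPM in input Veh and at 125, 99.7 and 98.5 CPM in input Rosi. In polysome it stood at 32.7, 49.7 and 45.6 CPM in Veh and at 31.6, 30.2 and 34.9 CPM in Rosi. The highest polysome library was far below the lowest input library in both arms, and all of its reads fell on a single transcript, with at least 628 reads in every library. The log2 fold change was −1.24 ± 0.16 in Veh (SE, edgeR adjusted p = 1.6e-05) and −1.74 ± 0.15 in Rosi (adjusted p = 4.82e-07). Of all genes tested, 4.21% lay below it in Veh and 0.436% in Rosi.

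The cytosolic and mitochondrial glutathione peroxidases and the plasma enzyme differed little between the fractions. Gpx1, which reduces hydrogen peroxide in the cytosol, stood at 494 and 549 CPM in input Veh and at 411, 520 and 498 CPM in polysome Veh. With Rosi it stood at 547, 546 and 490 CPM in input and at 436, 400 and 476 CPM in polysome. The groups overlapped in Veh (−0.13 ± 0.12, edgeR adjusted p = 0.37) and did not in Rosi, where the log2 fold change of −0.27 ± 0.10 passed the test (adjusted p = 0.0371) but missed it without replicate 1 or 2 of input Rosi or of polysome Rosi, with an adjusted p of up to 0.157. Gpx4, which reduces lipid peroxides in membranes, stood at 427 and 541 CPM in input Veh against 328, 448 and 418 CPM in polysome Veh, and at 516, 460 and 433 CPM in input Rosi against 384, 336 and 372 CPM in polysome Rosi. The libraries overlapped in Veh (−0.28 ± 0.14, adjusted p = 0.0984) and did not in Rosi (−0.37 ± 0.12, adjusted p = 0.0192). The value in Rosi missed the threshold without input Rosi replicate 1 (adjusted p = 0.0844) or polysome Rosi replicate 2 (adjusted p = 0.0832). That in Veh passed it without polysome Veh replicate 2 (adjusted p = 0.0476), with no filter on low counts (0.0484) and with all 12 libraries as deposited (0.0257). Without input Veh replicate 1, which left 1 library in that group, the value in Veh was −0.44.

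Gpx3, the secreted glutathione peroxidase, passed the test in neither arm. It stood at 744 and 722 CPM in input Veh and at 556, 616 and 830 CPM in polysome Veh, so that the polysome libraries lay on both sides of input. In Rosi it stood at 664, 602 and 608 CPM in input and at 702, 577 and 584 CPM in polysome. The log2 fold change was −0.14 in Veh (95% interval −0.44 to 0.17, edgeR adjusted p = 0.452) and −0.0077 in Rosi (−0.28 to 0.26, adjusted p = 0.964). Without polysome Veh replicate 3, the highest library, the value in Veh was −0.32 (adjusted p = 0.028). Txnrd1, the cytosolic thioredoxin reductase, stood at 303 and 330 CPM in input Veh and at 258, 343 and 339 CPM in polysome Veh, and at 287, 370 and 327 CPM in input Rosi and at 269, 294 and 234 CPM in polysome Rosi. All its groups overlapped. Its log2 fold change was −0.02 ± 0.14 in Veh (adjusted p = 0.94) and −0.30 ± 0.12 in Rosi (adjusted p = 0.0516), the latter just outside the threshold. It passed with several other settings, DESeq2 among them (adjusted p = 0.0268), and without input Rosi replicate 1 (adjusted p = 0.025), polysome Rosi replicate 2 (0.0384), polysome Veh replicate 1 (0.0151) or polysome Veh replicate 3 (0.0449).

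Over all genes, polysome over input moved with the length of the coding sequence, and the members were set against genes of like length. Genes of at most 100 codons (n = 357) had a median log2 fold change of 0.47 in Veh and 0.64 in Rosi, and genes of over 600 codons (n = 4486) one of −0.21 and −0.26. Selenok, at 94 codons, was at the middle of the shortest class, with 55.2% of its genes below it in Veh and 49.6% in Rosi. Selenow, at 88 codons, was near the very bottom of that class, with 1.96% of it below in Veh and 0.56% in Rosi, and only 1.68% and 2.24% of the class were called lower. Among genes of over 100 and up to 200 codons, Selenot was above 96.8% in Veh and 97.8% in Rosi, Selenos above 84.3% and 84.5%, and Selenof above 69.3% and 83.6%. Gpx4, in the same class, was above 12.4% and 7.98%. Selenop, with 380 codons, was above 93.5% and 89.9% of the genes of over 300 and up to 400 codons. Selenow and Selenot, at opposite ends of the members, both carry the TGA early and more than 50 bases upstream of the last junction, and the part of its position was not tested.

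**Figure D3:**
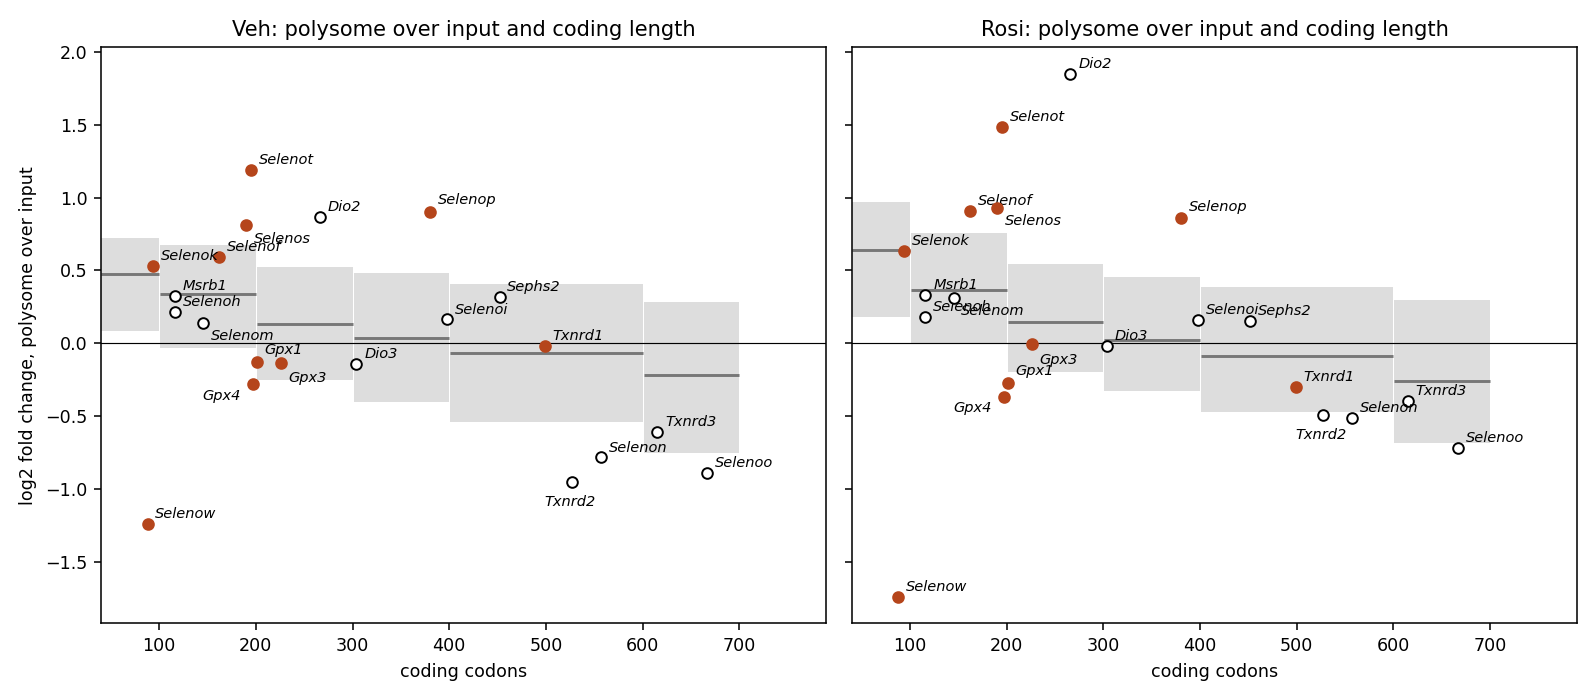
Log2 fold change of polysome over input (vertical axis) against coding length in codons (horizontal axis) in Veh and Rosi, for the 10 members (filled) and the 11 other selenoproteins tested (open), over the median (line) and middle 50% (grey) of all genes in 6 length classes, the longest drawn to 700 codons. Selenow lies far below the class of up to 100 codons, while Selenot and Selenop lie above the middle range of theirs.

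The second question was whether Rosi changed these mRNAs. None of the 10 was called in input, where 1.34% of all genes were called (edgeR, adjusted p under 0.05 and absolute log2 fold change over 0.2), and 0 had an unadjusted p under 0.05, against 17% of all genes. DESeq2 and limma on log2(TPM + 1) also called 0. None was called in polysome, where 0.655% of all genes were called, and DESeq2 and limma again called 0. There 1 member, Selenow, had an unadjusted p under 0.05, against 4.73% of all genes. The members' median log2 fold change was −0.0029 in input and −0.11 in polysome, against 0.01 and −0.0078 for all genes. Rosi and Veh libraries did not overlap for 3 members in input (Gpx3, Selenof and Selenos, all lower with Rosi), against 36.7% of all genes, and for 0 in polysome, against 8.96%.

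In input the log2 fold changes ran from −0.16 for Gpx3 (95% interval −0.34 to 0.01, edgeR adjusted p = 0.318) to 0.16 for Selenow (−0.08 to 0.41, adjusted p = 0.472). Each of the 10 intervals held 0, and their bounds lay between −0.34 and 0.41. For a given gene, the fit did not leave out changes within its own interval, such as −0.17 to 0.18 for Selenop. In polysome the largest value was that of Selenow, −0.41 ± 0.15 (SE, unadjusted p = 0.0168, edgeR adjusted p = 0.768), with polysome Veh at 32.7, 49.7 and 45.6 CPM and polysome Rosi at 31.6, 30.2 and 34.9 CPM. The groups overlapped only through polysome Veh replicate 1, which stood apart on the first component. Without that library the value was −0.57 (adjusted p = 0.0164) and Selenow was called. Txnrd1 followed at −0.25 (95% interval −0.53 to 0.03, adjusted p = 1), and the other 8 lay between −0.14 and 0.11. The summed adipocyte markers (6 of 6 with a mean of at least 1 CPM in some group) stood at 439 to 482 CPM in input Veh and 1177 to 1419 in input Rosi, and at 578 to 776 in polysome Veh and 2106 to 2577 in polysome Rosi, with no overlap in either fraction. In input Veh, Fabp4, Lpl and Cd36 held most of the sum. Adipoq (0.160 to 0.673 CPM) and Cidec (0.640 to 0.734) were near 0 there, against 29.3 to 36.3 and 128 to 169 in input Rosi. The macrophage markers stood at 16684 to 19218 CPM in input Veh and 11951 to 14025 in input Rosi, but overlapped in polysome, at 16473 to 21424 in Veh and 14774 to 18701 in Rosi. Lyz2 alone held most of these sums (10196 to 11175 CPM in input Veh, 7206 to 7939 in input Rosi). In input all 10 macrophage genes lay below 0, and 1 passed at an adjusted p under 0.05. The part of the adipocyte and macrophage markers in the values of the selenoproteins was not tested.

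**Figure D4:**
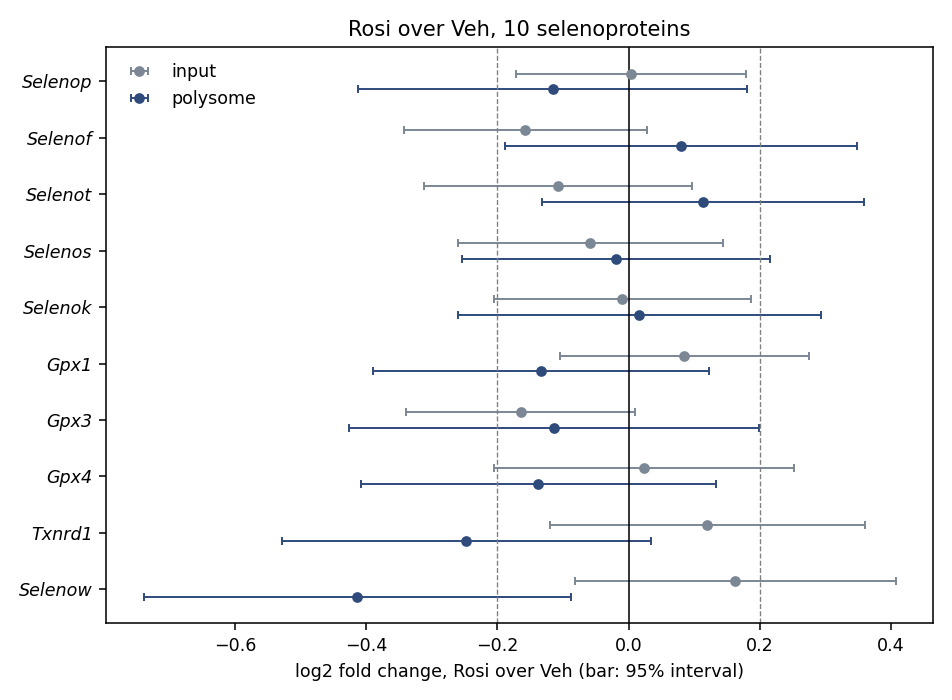
Log2 fold change of Rosi over Veh (horizontal axis) for each of the 10 mRNAs in input and in polysome, with 95% intervals and dashed lines at the fold limit of the calls. Selenow in polysome (−0.41) is the only member whose interval leaves out 0, and it did not pass the adjusted test.

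The third question was whether Rosi changed how far each mRNA was represented on polysomes, relative to all mRNAs. It was taken as the difference between the polysome over input ratio in Rosi and in Veh (translation efficiency). None of the 14042 genes tested, and so 0 of the 10, passed an adjusted p under 0.05 in edgeR (0% called, 6.84% at an unadjusted p under 0.05), and DESeq2 and limma called 0 members. Selenow had the largest difference, −0.50 on the log2 scale (95% interval −0.96 to −0.045, unadjusted p = 0.0335, adjusted p = 0.719). Selenof followed at 0.32 (−0.02 to 0.65, adjusted p = 0.728) and Selenot at 0.30 (−0.03 to 0.63, adjusted p = 0.731). Under Rosi both of the called mRNAs thus lay farther from input than under Veh, by differences that did not pass. The remaining 7 ran from −0.29 for Txnrd1 to 0.13 for Gpx3. The members' median was 0.03, against 0.06 for all genes.

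The other 14 selenoprotein genes were counted as a whole for comparison, and 11 were expressed enough to be tested, all but Gpx2, Dio1 and Selenov. In polysome over input, 2 were higher and 4 lower in Veh, against 24.7% and 24.6% of all genes. In Rosi 3 were higher and 4 lower, against 29.1% and 26%. Those lower in both were Selenoo, a mitochondrial protein (−0.89 and −0.72), Txnrd2, the mitochondrial thioredoxin reductase (−0.95 and −0.49), Selenon, which resides in the ER membrane (−0.78 and −0.51), and Txnrd3 (−0.61 and −0.40). Selenon thus differed in direction from the ER proteins among the members, and the ER protein Selenom was higher in Rosi (0.31, edgeR adjusted p = 0.0241, against 0.14 in Veh, adjusted p = 0.361). Msrb1, the methionine sulfoxide reductase, was higher in both (0.33 and 0.33), and Sephs2, which makes the selenium donor, in Veh (0.32, adjusted p = 0.0337). Dio2, the deiodinase that activates thyroid hormone, was called in Rosi (1.85, adjusted p = 0.000626) at a very low level, 0.35 to 0.62 CPM in input and 1.54 to 1.80 CPM in polysome. With Rosi, 0 of the 11 passed in input or polysome in edgeR. An unadjusted p under 0.05 was found for 2 and 0, against 17% and 4.73% of all genes.

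The next list held 13 genes tied to selenocysteine synthesis, insertion, regulation or breakdown. Of these, 5 were higher and 5 lower in polysome in Veh, against 24.7% and 24.6% of all genes. In Rosi 6 were higher and 4 lower, against 29.1% and 26%. Eefsec, the elongation factor itself, was lower in both (−1.05 and −1.0), as were Sars, which charges the selenocysteine tRNA with serine (−1.07 and −0.88), and Eif4a3, of the exon junction complex (−0.69 and −0.49). Alkbh8, which modifies that tRNA, was higher (0.73 and 1.23), as was Ncl, the nucleolar protein nucleolin (0.80 and 0.87). Secisbp2l was also higher in both (0.44 and 0.70), and Scly, which releases selenium from selenocysteine, was lower in both (−0.69 and −0.34). Secisbp2 itself stood lower, at 18.5 to 19.1 CPM in input Veh against 13.9 to 15.5 CPM in polysome Veh. In the Rosi arm it stood at 18.5 to 19.4 CPM in input and at 15.6 to 17.7 CPM in polysome. With Rosi, 0 of the 13 passed in either fraction. An unadjusted p under 0.05 was found for 3 in input and 0 in polysome, against 17% and 4.73% of all genes. Among the 3 receptors of selenoprotein P, Lrp1 stood far lower in polysome (−1.85 and −1.61), from 1591 to 2238 CPM over the input libraries to 473 to 725 CPM over the polysome libraries. Lrp8 stood higher (0.72 and 0.72), and Lrp2 was lower in Rosi (−0.66, edgeR adjusted p = 0.00679, against −0.29 in Veh, adjusted p = 0.27).

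Of 26 redox partners, most of them enzymes that use cysteine in place of selenocysteine or that serve glutathione and thioredoxin, with Txnrd3 counted here as well as among the selenoproteins, 10 were higher and 6 lower in polysome in Veh, and 14 and 5 in Rosi. Of all genes, 24.7% were higher and 24.6% lower in Veh, and 29.1% and 26% in Rosi. Txn1, the thioredoxin that TXNRD1 reduces, was higher in both (1.03 and 1.08), while Txnrd1 was not, and Gpx8, an ER glutathione peroxidase with cysteine in its active site, was higher (0.69 and 0.99). Gpx7, of the same kind, was not (−0.10, edgeR adjusted p = 0.432, and −0.07, adjusted p = 0.509). Slc3a2, a subunit of the cystine transporter, was lower (−1.23 and −0.97), but Slc7a11, its other subunit, stood higher in polysome. Slc7a11 was at 13.8 to 15.4 CPM in input Veh and 21.4 to 26.9 CPM in polysome Veh. In the Rosi arm it was at 10.3 to 13.9 CPM in input and 20.3 to 25.8 CPM in polysome. Of 7 partners of SELENOS, SELENOK and SELENOF in ER quality control, 1 was higher and 3 lower in Veh, and 2 and 4 in Rosi. These counts stand beside the same shares of all genes. Vcp, the ATPase that extracts proteins from the ER (−1.03 and −0.89), Syvn1, its ubiquitin ligase partner (−1.19 and −0.80), and Uggt1 (−0.70 and −0.76) were lower, and Zdhhc6, which acts with SELENOK in palmitoylation, was higher (0.56 and 0.65). Derl2, which like its relative Derl1 binds SELENOS at the ER membrane, was higher in Rosi (0.60, edgeR adjusted p = 0.000353, against 0.31 in Veh, adjusted p = 0.0566), and Derl1 passed in neither arm (−0.16 and −0.08). With Rosi, 0 genes of these 3 lists passed in either fraction.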

How the data were processed

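The authors demultiplexed with bcl2fastq 2.17 and quantified poly(A) libraries with Salmon against mm10 (version not given in the sources used here). The authors deposited an estimated count and a TPM for each of 117135 transcripts per library. Of these, 115973 matched a gene of GENCODE M21, and the 1162 others held 0.381 to 0.464% of reads. Libraries whose titles name only the tissue were taken as polysome. The design text gives 3 days of differentiation and the protocols 4. Salmon splits reads among similar transcripts by estimation, and Gpx4-ps2 had at most 14 reads in a library. Whether counting used strand is not stated.

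Estimated counts were summed to genes, rounded and tested with edgeR 4.0.16 (R 4.3.3) by the quasi-likelihood F test, two-sided, after filterByExpr and TMM scaling, with Benjamini-Hochberg adjustment over all genes. CPM are TMM-scaled. Input and polysome were fitted alone for Rosi against Veh, and all 4 groups together otherwise. SE is the size of the fitted change divided by √F, and 95% intervals use the t distribution of the fit. The p-values measure the spread between libraries, and whether these came from separate mice is not stated. The members and lists were chosen with earlier results of these data known. All 10 members are named, and of each other list and comparison at most 6 genes of smallest p that passed, or the highest and lowest value. Not every such gene is described. Gpx7, Derl1, Secisbp2, Slc7a11 and the second arm's value of a gene were added after their values were seen. Further markers (lymphocyte, endothelium, mesothelium, smooth muscle, erythroid) were summed only. The functions were tested on simulated data. Alternatives were RLE and upper quartile scaling, DESeq2 1.42.0, other filters, each library left out, a replicate block, 12 libraries, limma 3.58.1 on log2(TPM + 1), protein_coding transcripts alone and 1 joint fit.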

Additional observations from a re-analysis of the deposited data

How the results depend on the processing

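The counts of called members were unchanged under every alternative but in Rosi over Veh in polysome, where 1 member, Selenow, was called without polysome Veh replicate 1 (range 0 to 1 over single libraries left out) and also, as chosen after seeing the data, without polysome Veh 1 and polysome Rosi 3 together (1 member, −0.62, adjusted p = 0.0217). No pairing of libraries by replicate number was detected (correlation of deviations −0.23 to 0.11 for the same number). With so few libraries in a group, this check cannot show that pairing is absent, and the paper describes input as RNA taken ahead of fractionation. The replicate block left the counts of called members at 0, 0, 2, 2 and 0. It moved Gpx1 (−0.27, adjusted p = 0.0577) and Txnrd1 (−0.30, adjusted p = 0.042) across the threshold in Rosi polysome over input.

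Of 990 single alternatives of the members' fold changes, 923 kept direction and side of the threshold and 40 changed sign, none of them past the threshold. In Rosi over Veh in input, Selenop was −0.0108 with RLE, −0.0107 with DESeq2 and −0.063 in 1 joint fit, Gpx4 −0.034 with 12 libraries and −0.044 in the joint fit, and Selenok 0.033 and Selenos 0.0037 with limma on TPM. With a library left out, Gpx4 ran from −0.13 to 0.20, Selenop from −0.036 to 0.043 and Selenok from −0.055 to 0.019. In polysome, Selenos was 0.0032 with limma and 0.083 without both libraries that stood apart, and Selenok −0.0058 on protein_coding transcripts. With a library left out, Selenos ran from −0.072 to 0.0800, Selenok from −0.087 to 0.14 and Gpx3 from −0.23 to 0.0703. In polysome over input in Veh, Txnrd1 was 0.0084 with upper quartile factors, 0.0502 with limma and 0.14 without both libraries (−0.083 to 0.098 leaving out 1), and without both Gpx1 was 0.00403 and Gpx3 0.017. In Rosi, Gpx3 was 0.0016 with no filter, 0.0021 on protein_coding transcripts and 0.033 without both libraries (−0.104 to 0.042 leaving out 1). In translation efficiency, Selenos was −0.00047 with limma, and with a library left out Gpx4 ran from −0.27 to 0.076 and Selenop from −0.18 to 0.059. The cause of these moves was not tested.

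Counts over all genes were 182 called in input (57 with limma to 1580 without input Rosi replicate 1), 88 in polysome (37 with limma to 189 with no filter), 1358 for polysome over input in Veh (844 with limma), 1593 in Rosi (876 with limma) and 0 for translation efficiency (57 with no filter). With 2 distinct libraries, input Veh limits every comparison it enters.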
